A study of Bos taurus with 6 samples.

Results

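bta-miR-320a and bta-miR-484 are miRNAs whose precursors are reported to mature without Drosha. Both were followed in extracellular vesicles (EVs) of bovine granulosa cells and were picked by their miRNA identifiers, by a rule that uses no measured value. Earlier results of these data were known when the 2 miRNAs were chosen. They are 2 of the 512 miRNAs listed for each library, and 2 of the 3 identifiers chosen. The third, bta-miR-320b, is not among the 512 miRNAs listed and so could not be analysed. The EVs came from the spent medium of primary granulosa cells (*Bos taurus*) aspirated from follicles of 3 to 6 mm in slaughterhouse ovaries. All cells first grew at 37 °C for 24 h in medium with exosome-depleted serum, and then stayed at 37 °C (control-EVs, 3 libraries) or went to 42 °C (heat stress, HS-EVs, 3 libraries) for another 24 h. EVs were precipitated with ExoQuick-TC. The study describes the 3 libraries of a group as biological replicates, and the labels number them but do not tie them to animals.

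Most miRNA precursors are cut out of a longer primary transcript in the nucleus by the Microprocessor, which holds the RNase Drosha, and are then cut by Dicer in the cytoplasm. The precursor of miR-320 is instead known to be transcribed as a short hairpin that begins at its own transcription start and carries a methylguanosine cap, so that Drosha is not needed while Dicer still is. miR-484 is reported to be made in the same way. Mature miRNAs of both names are often found in plasma, blood cells and EVs, and miR-484 is in use as a reference miRNA in serum studies. In RefSeq (assembly ARS-UCD2.0, which is not the assembly of the deposited data), bta-miR-320a has 2 genes. MIR320A-1 lies beside POLR3D, which encodes a subunit of RNA polymerase III, and MIR320A-2 lies inside the span of RNF180, a ubiquitin ligase gene. MIR484 lies between MARF1 and NDE1. The deposited values give the mature miRNA, so that the products of MIR320A-1 and MIR320A-2 cannot be told apart.

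Each value is a normalized read count to which the authors applied TMM scaling (trimmed mean of M-values). The reads behind it were recovered from the smallest value above 0 of each library, taken as 1 read, and summed to between 274434 and 2360980 reads. For every one of these libraries the study lists fewer reads mapped to annotated miRNAs than were recovered here. The reason was not tested, and all read numbers and counting intervals below rest on the recovered reads. bta-miR-1246 alone took 59.9% to 84.6% of the reads of the control-EVs libraries and 75.6% to 98.6% of those of the HS-EVs libraries. The reads on all other miRNAs numbered 34141 in HS-EVs replicate 1 and 73569 to 235634 in the other libraries. HS-EVs replicate 1 stood apart by both measures, and values without it are given beside the log2 fold changes, shares and ratios that turned or moved most without it.

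The 2 miRNAs differed widely in abundance. bta-miR-320a was among the most abundant miRNAs of the EVs in both groups, whereas bta-miR-484 was of moderate to low abundance. Neither passed the test for a difference between HS-EVs and control-EVs. The level of bta-miR-320a was close to equal in the group means, with a wide interval. The mean level of bta-miR-484 was lower in HS-EVs by more than the SD of either group, with groups that overlapped.

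bta-miR-320a had 6558, 3892 and 2178 normalized read counts in control-EVs replicates 1, 2 and 3, and 5362, 3195 and 3610 in HS-EVs replicates 1, 2 and 3. The highest and the lowest library were both control-EVs, and all HS-EVs libraries lay between them. The reads behind these values numbered 1102 to 5581 in control-EVs and 1305 to 2905 in HS-EVs. The mean was 4209 ± 2208 normalized read counts in control-EVs against 4056 ± 1150 in HS-EVs (± SD, n = 3 libraries each).

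bta-miR-484 had 62.4, 93.4 and 57.3 normalized read counts in control-EVs replicates 1, 2 and 3, and 53.4, 61.6 and 35.9 in HS-EVs replicates 1, 2 and 3. The highest library was control-EVs replicate 2 and the lowest HS-EVs replicate 3, and the groups overlapped through HS-EVs replicate 2. It was read 34, 134 and 29 times in control-EVs and 13, 56 and 22 times in HS-EVs, so that each library held more than 3 reads, the smallest number told from 0 here. The mean was 71.1 ± 19.6 normalized read counts in control-EVs against 50.3 ± 13.2 in HS-EVs (± SD, n = 3 libraries each). By the criterion of the study, 10 or more normalized read counts in 2 or 3 libraries of a group, both miRNAs were detected in both groups.

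**Figure D1:**
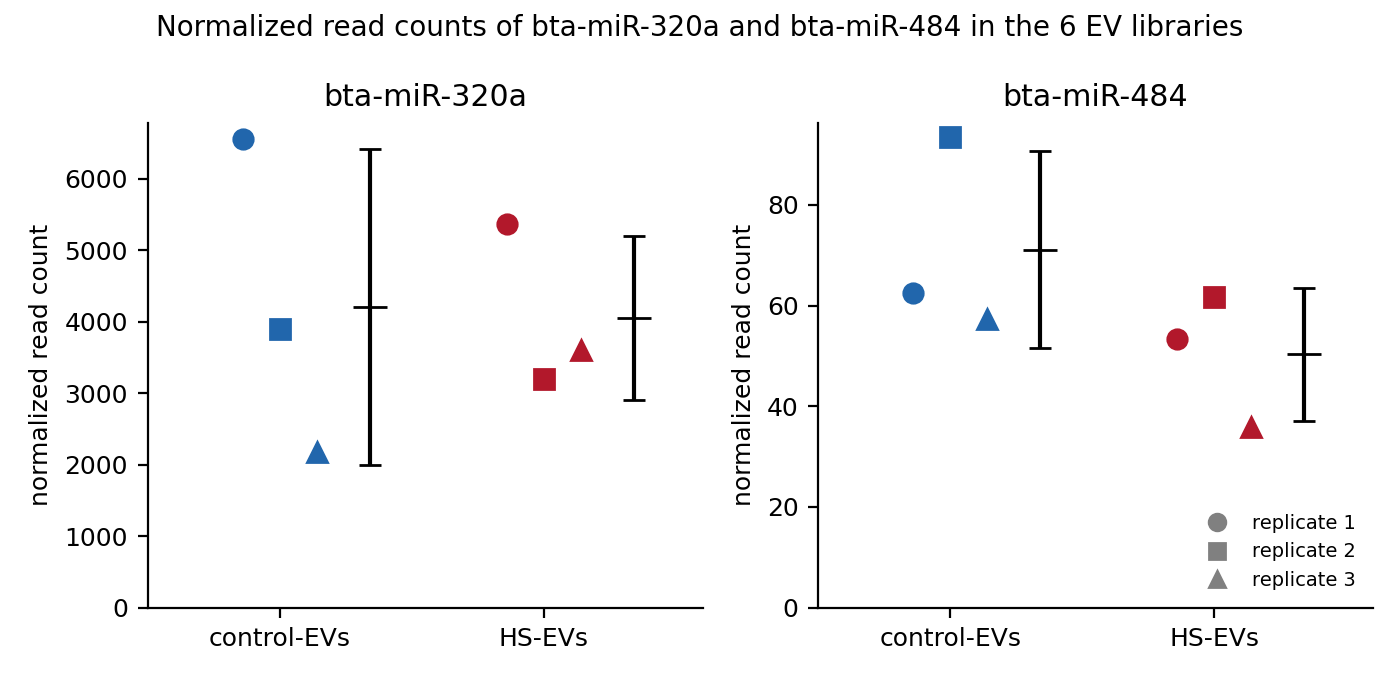
Normalized read counts (linear axis from 0) of bta-miR-320a and bta-miR-484 in each control-EVs and HS-EVs library, with the mean and SD of 3 libraries in black. For bta-miR-320a the HS-EVs libraries (3195 to 5362) lie inside the range of control-EVs (2178 to 6558), and for bta-miR-484 the HS-EVs libraries (35.9 to 61.6) overlap the control-EVs libraries (57.3 to 93.4).

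The heat stress comparison was made with limma on log2(normalized read count + 1) over all 512 miRNAs. The log2 fold change of bta-miR-320a, HS-EVs against control-EVs, was 0.05 (standard error 0.53, 95% confidence interval -1.12 to 1.23, adjusted p = 0.974 from limma). The interval reaches from a level 0.459 times that of control-EVs to one 2.34 times as high, so that a change of 2-fold in either direction lies within it. The log2 fold change of bta-miR-484 was -0.49 (standard error 0.46, 95% confidence interval -1.52 to 0.53, adjusted p = 0.873 from limma). Its interval reaches from 0.349 to 1.45 times the level of control-EVs. Neither adjusted p-value shows that the levels were equal.

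By limma, 0 of the 512 miRNAs (0%) combined an adjusted p-value up to 0.3 together with a log2 fold change of at least 1 in size, the threshold used for EVs in the study. With edgeR, the study itself reported several miRNAs enriched in HS-EVs at this threshold. bta-miR-1246 was among them, and bta-miR-320a and bta-miR-484 were not. In limma, 25 of the 512 miRNAs (4.88%) reached an unadjusted p-value of 0.05. Neither bta-miR-320a (unadjusted 0.924) nor bta-miR-484 (unadjusted 0.309) was one of them. On the recovered reads, edgeR's quasi-likelihood test called 3 miRNAs and DESeq2 called 0, and neither bta-miR-320a nor bta-miR-484 was among them. The groups did not overlap in normalized read count for 33 of the 512 miRNAs (6.45%), and for neither of these 2. The number called by limma was 2 without HS-EVs replicate 1, 3 without HS-EVs replicate 2, 4 without control-EVs replicate 2 and 0 without each of the other 3 libraries. The direction of bta-miR-320a rested on single libraries. Its log2 fold change was -0.35 without control-EVs replicate 3, -0.17 without HS-EVs replicate 1 and 0.44 without control-EVs replicate 1, against 0.05 with all libraries. That of bta-miR-484 was negative without any one of the 6 libraries, between -0.65 without HS-EVs replicate 2 and -0.27 without HS-EVs replicate 3.

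**Figure D2:**
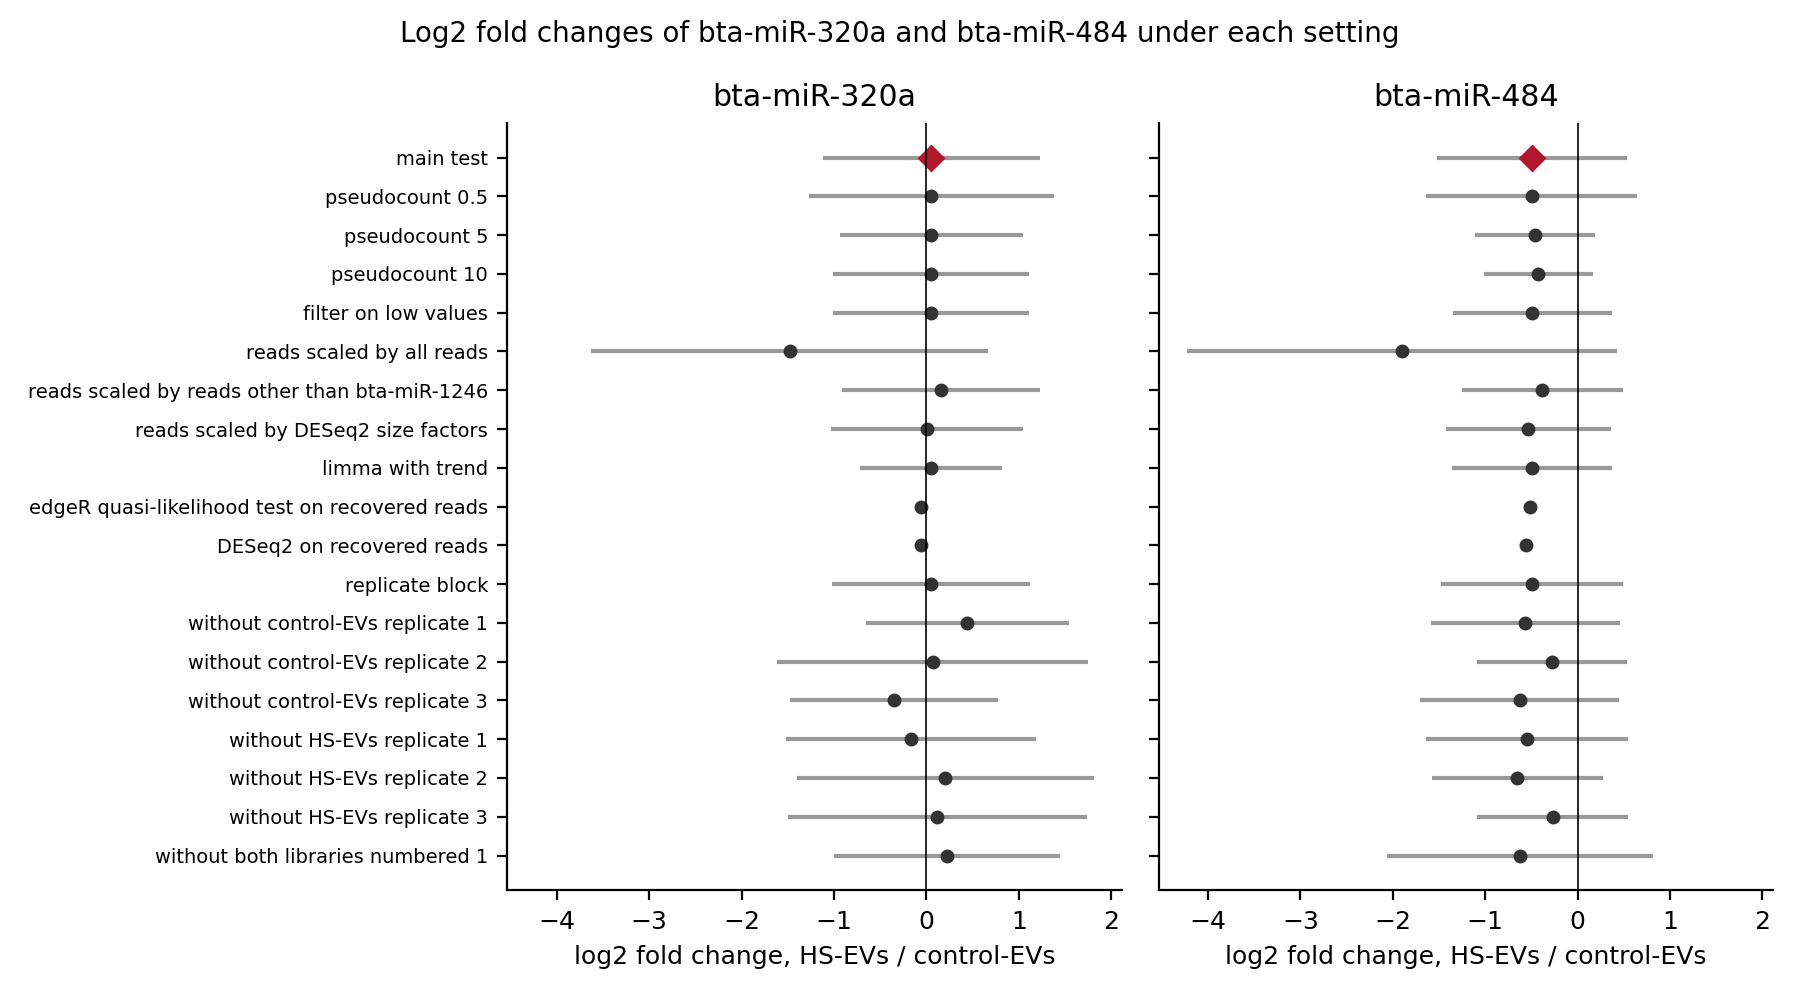
Log2 fold change of bta-miR-320a (left) and bta-miR-484 (right), HS-EVs against control-EVs, in the main test (red diamond) and under each alternative (black points), with 95% confidence intervals from limma where limma was used. The points of bta-miR-320a lie on both sides of 0, those of bta-miR-484 all lie below 0, and every interval drawn crosses 0.

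Abundance within a library was read from the share of the reads other than those of bta-miR-1246, since that miRNA sets the total. bta-miR-320a took 4.66% of these reads in control-EVs replicate 1 (95% Wilson confidence interval 4.52% to 4.81%), 2.37% in replicate 2 (2.31% to 2.43%) and 1.5% in replicate 3 (1.41% to 1.59%). In HS-EVs it took 3.82% in replicate 1 (3.62% to 4.03%), 2.35% in replicate 2 (2.27% to 2.44%) and 2.55% in replicate 3 (2.45% to 2.66%). The share was highest in the 2 libraries numbered 1, and the intervals cover counting error only. In control-EVs they lay far apart, while in HS-EVs those of replicates 2 and 3 were separated only narrowly. The mean share was 2.84% ± 1.64 in control-EVs against 2.91% ± 0.796 in HS-EVs (± SD, n = 3 libraries each; two-sided exact permutation test, p = 0.9). The difference of 0.0669 percentage points turned to -0.389 without HS-EVs replicate 1, -0.170 without control-EVs replicate 2 and -0.606 without control-EVs replicate 3, and was 0.977 without control-EVs replicate 1. With 3 libraries a group this test cannot give a p below 0.1, and so cannot reach 0.05.

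The share of bta-miR-484 was 0.0444%, 0.0569% and 0.0394% in control-EVs replicates 1, 2 and 3, with Wilson intervals of 0.0318% to 0.0620%, 0.0480% to 0.0673% and 0.0274% to 0.0566%. In HS-EVs it was 0.0381%, 0.0454% and 0.0254% in replicates 1, 2 and 3, with intervals of 0.0223% to 0.0651%, 0.0349% to 0.0589% and 0.0168% to 0.0384%. The intervals of most libraries overlapped, but those of control-EVs replicate 2 and HS-EVs replicate 3 did not. The mean was 0.0469% ± 0.00899 in control-EVs against 0.0363% ± 0.0101 in HS-EVs (± SD, n = 3 libraries each; two-sided exact permutation test, p = 0.3). The difference of -0.0106 percentage points was -0.00517 without HS-EVs replicate 3, -0.00562 without control-EVs replicate 2 and -0.0152 without HS-EVs replicate 2.

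Ranked by its mean share, bta-miR-320a stood at place 11 of 511 miRNAs, between bta-miR-92a, which was above it in 3 of 6 libraries, and bta-miR-378, which was below it in all 6. It held places 8, 10 and 13 in control-EVs and 10, 11 and 11 in HS-EVs. bta-miR-484 stood at place 120, beside bta-miR-126-5p and bta-miR-32, which were above it in 3 and 2 of 6 libraries. It held places 111, 91 and 108 in control-EVs and 121, 119 and 142 in HS-EVs, so that every HS-EVs library gave it a lower place than every control-EVs library. Ranks were looked at after the other values were known. Of the 129 miRNAs other than bta-miR-1246 with 10 or more reads in every library, 9 (6.98%) had ranks that did not overlap between the groups. In its normalized read count, share and ratios, bta-miR-484 overlapped between the groups.

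**Figure D3:**
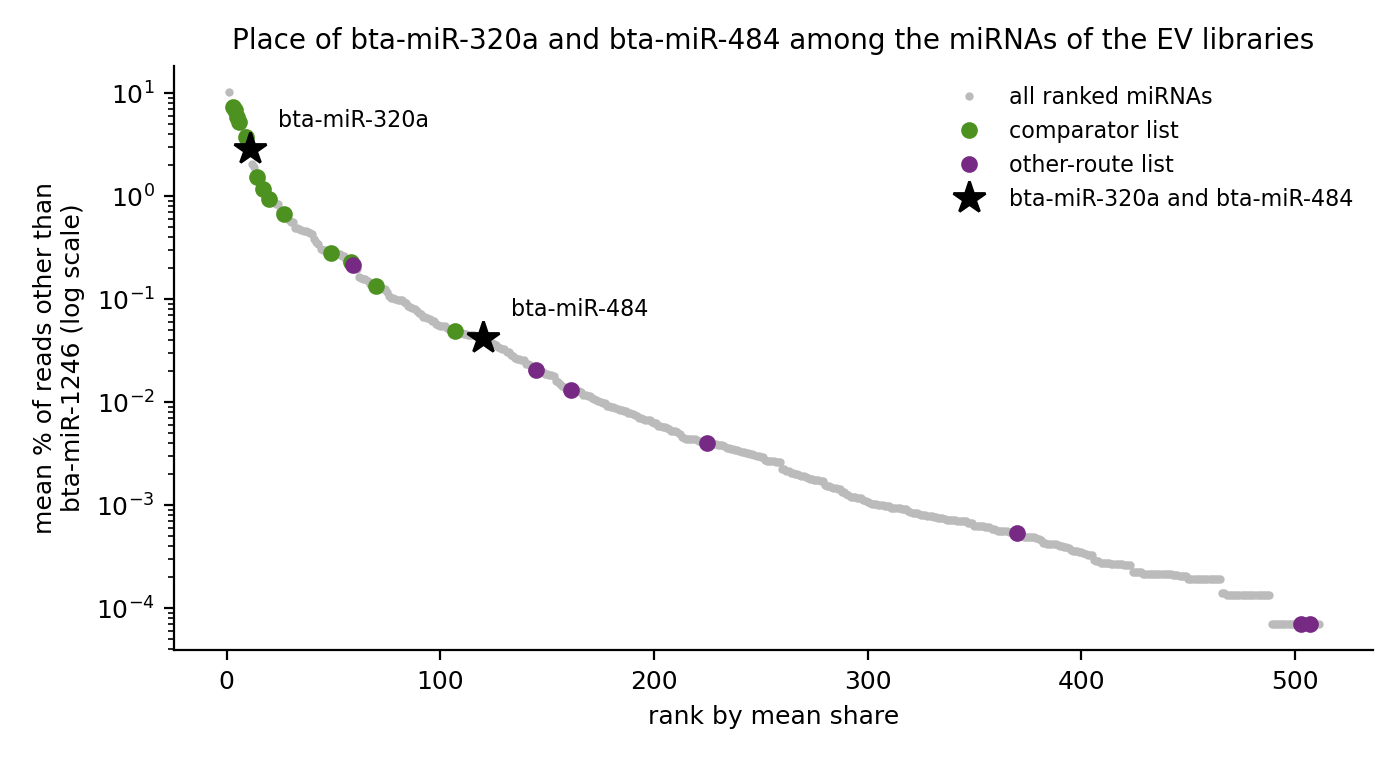
Mean share of the reads other than bta-miR-1246 over the 6 libraries (log scale) against rank for 511 miRNAs, with bta-miR-320a and bta-miR-484 as stars, the list of commonly used comparator miRNAs in green and the list of miRNAs made by other unusual routes in purple. bta-miR-320a lies at place 11 and bta-miR-484 at place 120.

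The ratio of the 2 miRNAs within a library does not depend on how the library was scaled. For each read of bta-miR-484 there were 105 reads of bta-miR-320a in control-EVs replicate 1 (95% exact binomial interval 75.1 to 152), 41.6 in replicate 2 (35.1 to 49.8) and 38.0 in replicate 3 (26.3 to 57.0). In HS-EVs there were 100.4 in replicate 1 (58.5 to 189), 51.9 in replicate 2 (39.8 to 68.8) and 100.7 in replicate 3 (66.3 to 161). Control-EVs replicate 1 and HS-EVs replicates 1 and 3 thus had ratios near each other, and the remaining 3 libraries had lower ones, across the groups. On the log2 scale the ratio was 5.76 ± 0.81 in control-EVs against 6.30 ± 0.53 in HS-EVs (± SD, n = 3 libraries each; two-sided exact permutation test, p = 0.4). The difference of 0.54 was 0.39 without HS-EVs replicate 1 and between 0.27 without control-EVs replicate 3 and 1.00 without control-EVs replicate 1 over all left-out libraries.

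Both miRNAs were also set against 13 miRNAs that are found in most cells and are made by the Drosha route, several of them in use as references (bta-miR-16a, bta-miR-16b, bta-miR-103, bta-miR-107, bta-miR-191, both arms of bta-miR-423, bta-miR-93, bta-miR-25, bta-miR-26a, bta-miR-21-5p, bta-let-7a-5p and bta-let-7i). bta-miR-320a was on average 2.61 times the geometric mean of these 13, above 8 of them and below 5 in mean share. bta-miR-484 was on average 25.1 times less than their geometric mean and lower than each of the 13 in mean share over the 6 libraries. The comparator nearest to it was bta-miR-107 (mean share 0.0489%), which had fewer reads than bta-miR-484 in 4 of the 6 libraries, namely all control-EVs libraries and HS-EVs replicate 1. The log2 ratio of bta-miR-320a to the 13 was 1.37 ± 0.79 in control-EVs against 1.40 ± 0.56 in HS-EVs (± SD, n = 3 libraries each; two-sided exact permutation test, p = 1). This difference of 0.03 turned to -0.29 without HS-EVs replicate 1, -0.35 without control-EVs replicate 3 and -0.0097 without control-EVs replicate 2. That of bta-miR-484 was -4.40 ± 0.28 in control-EVs against -4.91 ± 0.47 in HS-EVs (± SD, n = 3 libraries each; two-sided exact permutation test, p = 0.2). Without HS-EVs replicate 1 the difference between the groups moved from -0.51 to -0.68 (exact permutation test, p = 0.1, the smallest that 2 against 3 libraries allow), and without HS-EVs replicate 3 it was -0.24 (exact permutation test, p = 0.5). Adjusted over the 5 exact tests of shares and ratios by Benjamini-Hochberg, the permutation p-values lay between 0.667 and 1. Of the 13 comparators, 0 passed limma's threshold, and their median log2 fold change was -0.05, beside 0.01 over all 512 miRNAs.

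**Figure D4:**
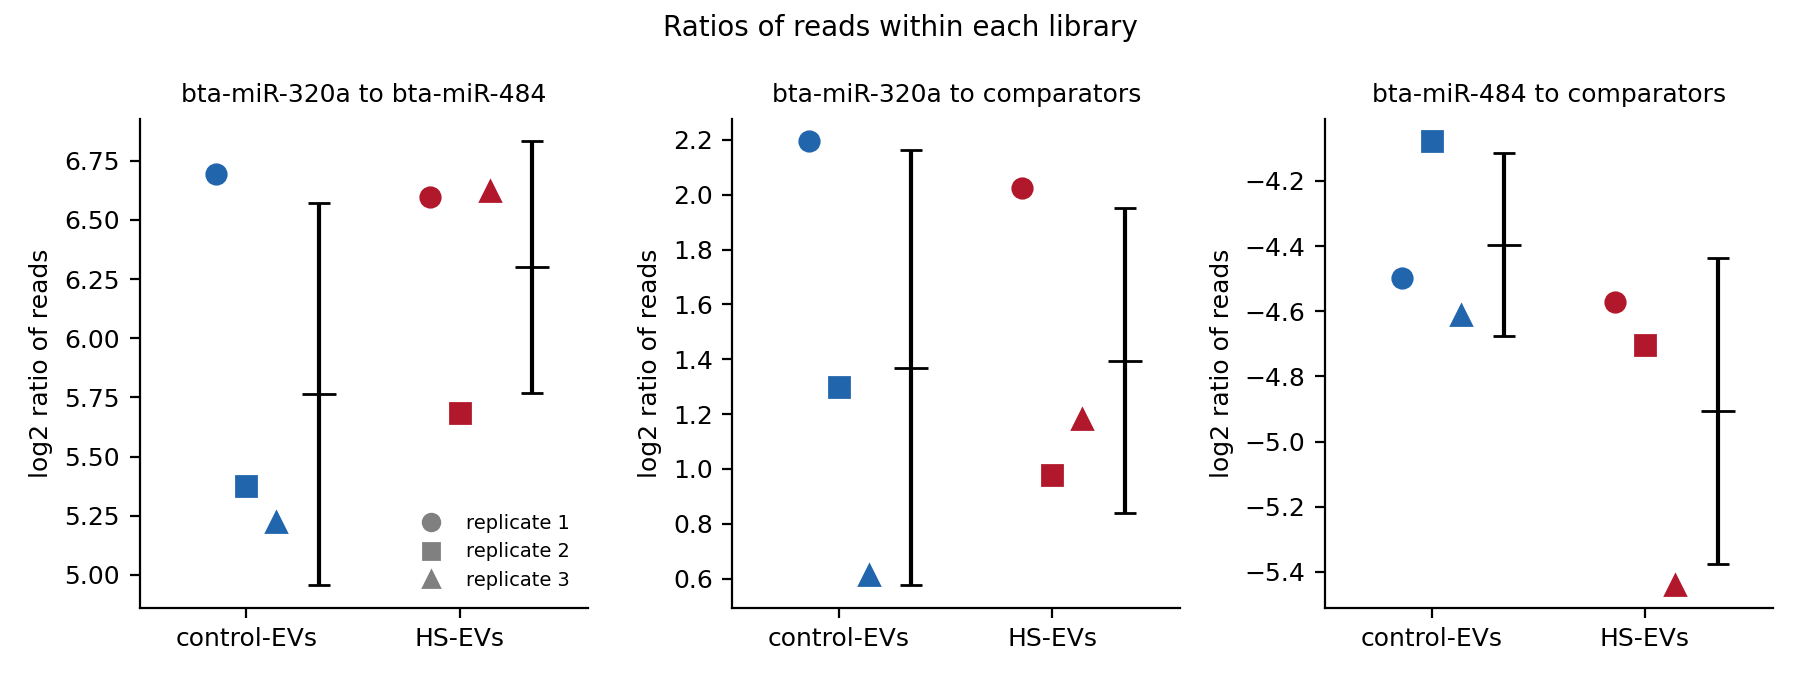
Log2 ratios of recovered reads within each library, bta-miR-320a to bta-miR-484 (left), bta-miR-320a to the 13 comparators (middle) and bta-miR-484 to the 13 comparators (right), with the mean and SD of 3 libraries in black. The 3 axes have different ranges, and the groups overlap in all 3 panels.

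The spread over libraries differed between the 2 miRNAs in what counting could give. Over the 6 libraries, log2(normalized read count + 1) of bta-miR-320a had an SD of 0.56, where counting error alone gives an SD of about 0.03. Of the 30 miRNAs nearest to it in mean level, 5 had a larger SD, and the median of the 30 was 0.39. bta-miR-484 had an SD of 0.44, where counting error gives about 0.27, and 15 of its 30 nearest miRNAs had a larger SD. In bta-miR-320a the spread was wider in control-EVs (SD 0.80 on the log2 scale, n = 3) than in HS-EVs (SD 0.39, n = 3), and the difference between these SDs was not tested.

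**Figure D5:**
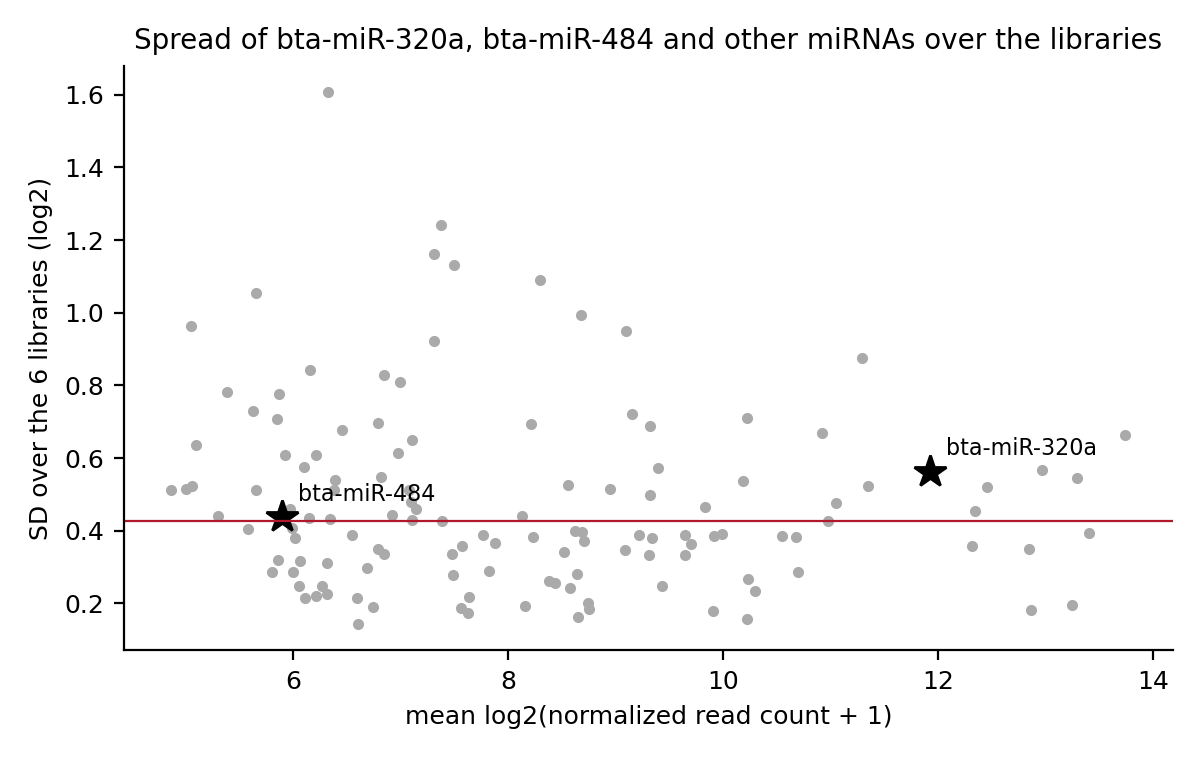
SD of log2(normalized read count + 1) over the 6 libraries against its mean, for the 129 miRNAs other than bta-miR-1246 with 10 or more reads in every library, with bta-miR-320a (SD 0.56) and bta-miR-484 (SD 0.44) as stars. The red line is the median SD of the 129, 0.43.

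The 2 miRNAs showed little sign of varying together, a question that 6 libraries cannot settle. Their log2 normalized read counts had a Pearson correlation of 0.07 over the 6 libraries, which share their scaling, and bta-miR-484 was at place 67 of the 128 miRNAs compared with bta-miR-320a. The miRNAs with the pattern most like bta-miR-320a were bta-miR-296-3p (r = 0.94), bta-miR-3431 (r = 0.93) and bta-let-7g (r = 0.92), each of which was highest in the 2 libraries numbered 1. Those most like bta-miR-484 were bta-miR-130a, bta-miR-760-3p and bta-miR-25 (r = 0.93, 0.93 and 0.92), and all 3 were, like bta-miR-484, highest in control-EVs replicate 2 and lowest in HS-EVs replicate 3. These correlations over 6 libraries are descriptions of the highest values among 128 and have no test.

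Of the miRNAs that are known or reported to skip Drosha or Dicer by other routes, 7 were listed. bta-miR-877, bta-miR-1224 and bta-miR-1225-3p belong to names known as mirtrons, which are released by splicing. bta-miR-1291, bta-miR-1839 and bta-miR-664b belong to names linked to snoRNAs. bta-miR-451, the erythroid miRNA, needs Drosha and is cut by Ago2 in place of Dicer. The most abundant of the 7 was bta-miR-1839, with 68 to 549 reads in a library and a mean share of 0.213%, which lies between bta-miR-320a and bta-miR-484. bta-miR-877 had 6 to 46 reads, and 3 of the 7 had no read in at least 3 libraries. bta-miR-877 had 22.8 ± 8.75 normalized read counts in control-EVs against 15.7 ± 7.77 in HS-EVs (± SD, n = 3 libraries each), and bta-miR-1839 had 292 ± 89.7 and 324 ± 89.3 (SD, n = 3). By limma, 0 of the 7 passed the threshold and 0 reached 0.05 before adjustment. The list had 3 miRNAs with higher and 4 with lower values in HS-EVs, and its median log2 fold change was -0.19, beside 0.01 over all miRNAs.

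miRNAs of blood cells and liver were measured in the same libraries, since bta-miR-320a and bta-miR-484 can also come with serum or blood. The 7 measured blood cell miRNAs, of which bta-miR-486 was the most abundant, took 0.516% to 1.15% of the reads other than bta-miR-1246 in control-EVs and 0.434% to 0.785% in HS-EVs. bta-miR-122, the liver miRNA, took 8.70% to 15.5% in control-EVs and 5.32% to 9.72% in HS-EVs. Its mean share was lower in HS-EVs, with groups that overlapped. The 11 measured miRNAs linked to granulosa cells took 2.14% to 5.51% in control-EVs and 3.52% to 3.66% in HS-EVs. Of these 11, bta-miR-378 had the largest mean share over the libraries (2.04%), followed by bta-miR-202 (1.16%). bta-miR-202, a miRNA of the gonads, had 508 to 2818 reads in every library, while bta-miR-212 and bta-miR-383 had 1 and 2 reads in all libraries together. By limma, 0 of the blood cell, liver and granulosa-linked miRNAs passed the threshold, and their median log2 fold changes were -0.19, -0.91 and 0.16. The part of serum or blood RNA in the levels of bta-miR-320a and bta-miR-484 was not tested.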

How the data were processed

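Small RNA of 6 EV libraries (QIAseq, with unique molecular identifiers, UMIs) was analysed. The authors trimmed reads, collapsed those with equal UMIs, mapped them to the bovine genome and miRBase, and deposited 1 TMM-normalized read count per miRNA and library, used here as a signal. The submitters' processing notes name cutadapt 1.11, Bowtie2 2.2.2, edgeR and UMD3.1. In each library 100% of values were whole multiples (within 0.001) of the smallest value above 0, which was taken as 1 read.

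All 512 miRNAs were tested with limma 3.58.1 (R 4.3.3) on log2(normalized count + 1), with no filter and no block, and adjusted by Benjamini-Hochberg. Shares and ratios (0.5 added to reads before logs) were compared with exact permutation tests (10 ways to divide the libraries). Wilson (95%) and exact intervals and the floor of 3 reads cover counting error only. edgeR 4.0.16 and DESeq2 1.42.0 on recovered reads, other scalings, pseudocounts, a filter, limma's trend, the replicate block and left-out libraries were alternatives. The fits were tested on simulated data. The named miRNAs are those of the rule, the lists, rank neighbours and the 3 most alike, and bta-miR-1246. The members and lists were chosen with earlier results of these data known. All 6 samples were used.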

Additional observations from a re-analysis of the deposited data

How the results depend on the processing

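Neither bta-miR-320a nor bta-miR-484 passed the threshold under any of the 18 alternatives to limma's main test, with adjusted p-values of 0.686 to 1 for bta-miR-320a and 0.574 to 0.995 for bta-miR-484. The log2 fold change of bta-miR-484 was negative in all 18, between -1.90 and -0.27. That of bta-miR-320a (0.05) turned to -0.054 in edgeR's quasi-likelihood test and -0.061 in DESeq2, and lay between -0.35 and 0.44 with each library left out. On reads scaled by all reads it was -1.48, where the median of the 130 miRNAs with 10 or more reads in every library was also shifted, to -1.45 from 0.04, and bta-miR-484 was at -1.90. Relative to that median, bta-miR-320a was at -0.03 and bta-miR-484 at -0.45. With bta-miR-1246 left out of the totals, the median was 0.14. The mean share of bta-miR-320a, higher in HS-EVs by 0.0669 percentage points, changed by -0.347 points as a share of all reads and by -0.606 to 0.977 points with each library left out. Its log2 ratio to the comparators (difference 0.03) was -0.088 without the 3 comparators abundant in blood cells and -0.35 to 0.44 with each library left out. The cause of these turns was not tested. The number of miRNAs past the threshold, 0 in the main test, was 1 with a pseudocount of 0.5, 2 with limma's trend, 3 with edgeR, 31 without both libraries numbered 1, and 0 to 4 with each library left out.

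Groups share replicate numbers, but the deviations from the group mean correlated by 0.14, 0.14 and 0.08 between libraries of one number, so that the numbers were not taken to pair the samples. As a hint from the data only, each HS-EVs library correlated best with the control-EVs library of its number. With the replicate block the count stayed at 0 and the log2 fold changes at 0.05 and -0.49 (adjusted p = 0.968 and 0.835 from limma). The paired differences in share (0.0669 and -0.0106 percentage points), in the log2 ratio of the 2 miRNAs (0.54) and in the ratios to the comparators (0.03 and -0.51) had exact sign-flip p-values between 0.25, the smallest that 3 pairs allow, and 1. The fewest reads behind a value were the 13 of bta-miR-484 in HS-EVs replicate 1. Counting alone gives that value a coefficient of variation of 27.7%.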
